A study of Homo sapiens with 6 samples.

Results

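Expression of 39 genes of DNA replication licensing and of the replication fork was compared between C4-2B, an established cell line of castration-resistant prostate cancer, and RC4-2B, a line derived from it that is resistant to the taxane cabazitaxel (CBZ). The genes were chosen by name as components of origin licensing, the replicative helicase, the polymerases with their clamp, and fork protection, and all 39 were found among the 58735 genes of the deposited count table. Gene expression was measured by RNAseq in 3 biological replicates of C4-2B and 3 of RC4-2B, grown in RPMI-1640 medium with 10% FBS and no drug, as far as the labels say. The study's RNA methods name charcoal-stripped serum beside FBS, so the serum is uncertain. RC4-2B had been selected in repeated 72 h exposures to CBZ, from 0.1 nM to 20 nM, over 4 months. It is 1 selected line, so each difference below is between these cell lines. The study asked how RC4-2B cells resist taxanes and went on to test drugs that act in S phase, which is where the expression of replication genes bears on it.

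Eukaryotic origins are licensed in G1 phase. The origin recognition complex (ORC) binds the DNA, CDC6 and CDT1 join it, and together they load the MCM2-7 helicase onto DNA as an inactive ring. Geminin, encoded by GMNN, binds CDT1 and prevents a second round of loading. At the start of S phase the kinase CDC7, with its activator DBF4, and the cyclin-dependent kinases convert the ring into the active CMG helicase by adding CDC45 and the GINS complex. Polymerase alpha-primase then starts each strand, polymerases delta and epsilon extend it on the PCNA clamp, and FEN1 and LIG1 process and join the Okazaki fragments. Many of these genes are transcribed in late G1 phase under the control of E2F factors, so their transcripts mark cycling cells.

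Promoter sequences are shown because the genes were selected by function and the promoter is a feature that the selection did not use. RefSeq promoters of GRCh38.p14, 250 bases before to 50 after the transcription start, were available for 35 of the 39 genes (all but GINS4, MCM4, MCM5 and POLD3), with 45 promoters in all. They were searched on both strands for 4 words of the E2F type, TTTCCCGC, TTTCGCGC, TTTGCCGC and TTTGGCGC. At least 1 word was found for 21 of the 35 genes (60%), against 6.68% of the 10383 tested genes with an entry. Counted per promoter, 46.7% of the 45 held a word, against 4.91% of the 15090 promoters of tested genes. Over all 35116 RefSeq promoters, expressed or not, 3.31% held a word. The word CCAAT, searched on both strands, was in 57.8% of the 45 promoters and in 34.6% of all. The 160 bases before the start are printed 5′ to 3′ on the strand of the gene for 6 genes picked after their values were seen: RFC2 and POLA1, which had the smallest p-values in each direction, CDT1 and its inhibitor GMNN, CDC7, and MCM6, which held the most words. Capitals mark the E2F-type words.
RFC2: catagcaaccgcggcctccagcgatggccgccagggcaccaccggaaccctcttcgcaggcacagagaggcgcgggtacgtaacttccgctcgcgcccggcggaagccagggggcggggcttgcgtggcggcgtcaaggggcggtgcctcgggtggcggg
POLA1: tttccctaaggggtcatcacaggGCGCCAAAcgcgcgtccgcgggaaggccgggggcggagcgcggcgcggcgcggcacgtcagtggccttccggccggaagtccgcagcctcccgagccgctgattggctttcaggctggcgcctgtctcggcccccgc
CDT1: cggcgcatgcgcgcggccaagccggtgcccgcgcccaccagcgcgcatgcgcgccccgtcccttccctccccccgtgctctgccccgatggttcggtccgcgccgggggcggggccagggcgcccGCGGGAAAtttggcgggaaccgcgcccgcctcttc
GMNN: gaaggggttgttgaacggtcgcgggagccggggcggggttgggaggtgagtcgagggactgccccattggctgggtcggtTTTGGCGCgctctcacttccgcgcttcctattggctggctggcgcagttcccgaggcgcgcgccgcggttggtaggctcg
CDC7: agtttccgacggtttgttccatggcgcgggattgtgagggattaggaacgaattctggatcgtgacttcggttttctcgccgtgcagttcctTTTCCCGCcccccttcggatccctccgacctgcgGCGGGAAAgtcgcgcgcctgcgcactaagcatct
MCM6: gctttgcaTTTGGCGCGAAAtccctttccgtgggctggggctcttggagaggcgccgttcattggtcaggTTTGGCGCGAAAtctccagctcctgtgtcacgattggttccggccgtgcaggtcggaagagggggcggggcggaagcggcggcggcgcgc

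These sequences lie at chr7:74254400-74254559 on the minus strand for RFC2, chrX:24693758-24693917 on the plus strand for POLA1, chr16:88803629-88803788 on the plus strand for CDT1, chr6:24775253-24775412 on the plus strand for GMNN, chr1:91500952-91501111 on the plus strand for CDC7 and chr2:135876444-135876603 on the minus strand for MCM6. The RFC2 stretch holds none of the 4 words. The POLA1 word begins 137 bases before the start and the CDT1 word 35 bases before it. MCM6 holds 4 words in 2 places, since each capital run contains a word on either strand that share their central bases. Where a gene has several entries, the promoter with the most words is shown. The log2 fold change of RC4-2B over C4-2B, described below, had a median of -0.013 over the 21 genes with a word (9 above 0 and 12 below) and of 0.073 over the 14 genes without one (8 above and 6 below). A match is a description of these letters and does not show binding.

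The libraries held 15707134 to 18052517 counts on genes, and the 39 genes had between 98 and 14184 counts in each library, so low counts limited none of them. RC4-2B replicate 2 stood apart. The SD of the log2 difference over the 39 genes was 0.0837 to 0.144 between C4-2B libraries and 0.168 between RC4-2B replicates 1 and 3, but 0.385 and 0.325 between RC4-2B replicate 2 and these. Its difference from the other RC4-2B libraries followed the GC content of the transcript, with a Spearman rho of -0.594 over the 39 genes and of -0.659 over all tested genes, while the same rho for C4-2B replicate 2 was -0.0138 over the 39 genes. The luminal keratin genes KRT8 and KRT18 were expressed in every library, KRT8 at 335 to 369 CPM (read counts scaled to library size with TMM) in C4-2B and 292 to 368 CPM in RC4-2B, and KRT18 at 241 to 261 CPM and 222 to 252 CPM. Other luminal genes were lower in RC4-2B. KLK3, which encodes prostate-specific antigen, had 916 to 1030 CPM in C4-2B and 31.5 to 59.1 CPM in RC4-2B (edgeR adjusted p = 0.000154), and KLK2 had 232 to 245 CPM and 76.4 to 170 CPM. The basal markers KRT5 and TP63 were at 0 in every library and KRT14 had 4 to 17 counts, and the fibroblast, immune and endothelial lists each had 1 gene over 3 counts (COL1A1, CD68 and VWF). COL1A1 was the highest of these, at 21.2 to 36.6 CPM, while COL1A2, DCN and LUM were at 0. In bulk RNA, fewer cells in S phase and less RNA per cell cannot be told apart. The paper reports that the lines were alike in proliferation rate, by cell count, and in mitotic index.

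**Figure D1:**
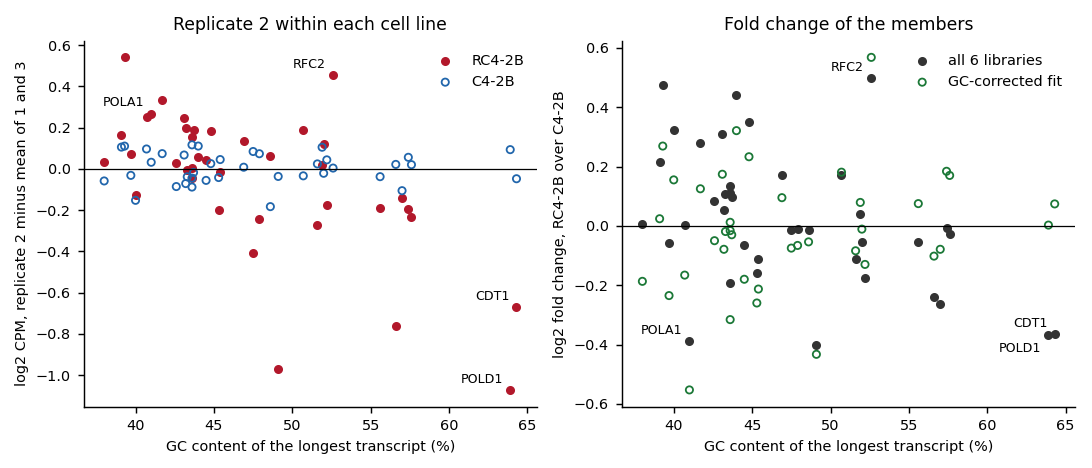
Left, the log2 CPM of replicate 2 minus the mean of replicates 1 and 3 for each of the 39 genes in RC4-2B (filled) and C4-2B (open), against the GC content of the longest transcript in percent. Right, the log2 fold change of RC4-2B over C4-2B from all 6 libraries (filled) and with a GC correction (open) against the same axis; the GC-rich genes POLD1 and CDT1 lie low in RC4-2B replicate 2, and their fold change moves to about 0 with the correction.

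The expression of the replication genes differed little between the lines, and none of the 39 passed the test. With edgeR's quasi-likelihood test and Benjamini-Hochberg adjustment over 15054 genes (threshold 0.05), RC4-2B had 0 of the 39 genes higher and 0 lower. Of all tested genes, 1.08% were higher and 0.903% lower. DESeq2 also called 0 in each direction, against a background of 3.28% higher and 2.64% lower. The median log2 fold change was -0.0078 over the 39 genes and 0.0063 over all tested genes, with 19 genes above 0 and 20 below. The median absolute log2 fold change was 0.136, against 0.226 over the 9317 tested genes in the same range of average expression. The 95% interval of the fold change lay within 2-fold for 38 of the 39 genes and within 1.5-fold for 27, and 51.8% of the genes in the same expression range had an interval within 1.5-fold. The exception to the 2-fold bound was POLA2, the second subunit of polymerase alpha.

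**Figure D2:**
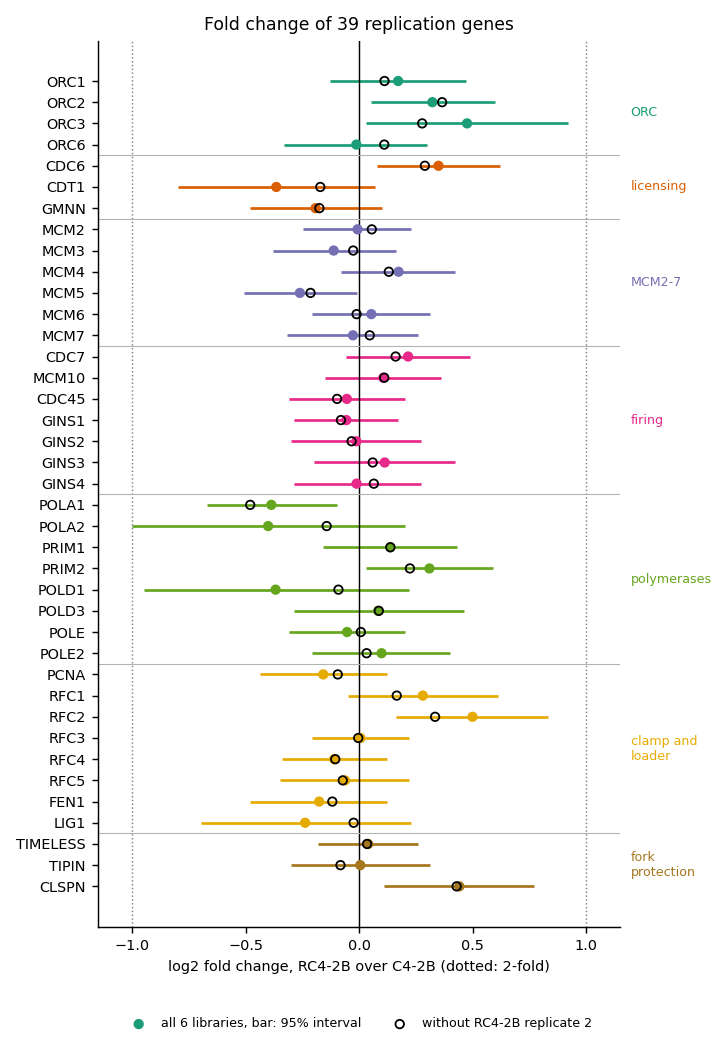
Log2 fold change of RC4-2B over C4-2B for the 39 genes, grouped by role, with 95% intervals from all 6 libraries (filled points and bars) and the estimate without RC4-2B replicate 2 (open circles). Points range from -0.40 for POLA2 to 0.50 for RFC2, and the dotted lines mark a 2-fold difference.

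Before adjustment, 6 of the 39 had a p-value under 0.05 and were higher in RC4-2B (RFC2, CLSPN, CDC6, ORC2, PRIM2 and ORC3; 15.4% of the 39 against 12.0% of all tested genes) and 2 were lower (POLA1 and MCM5; 5.13% against 9.42%). The same 6 genes had all RC4-2B libraries above all C4-2B libraries, a pattern found for 17.0% of all tested genes. POLA1, MCM5 and RFC4 had all RC4-2B libraries below, or 7.69% against 17.1%. These shares are near or below the background. Without RC4-2B replicate 2, RFC2, CLSPN, CDC6 and ORC2 were higher at an adjusted p-value under 0.05 (10.3% of the 39, against 6.50% of all genes) and POLA1 was lower (2.56% against 6.02%). With a correction for GC content, RFC2 was higher (2.56% against 4.36%) and POLA1 lower (2.56% against 3.25%). Leaving out any other single library called none.

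**Figure D3:**
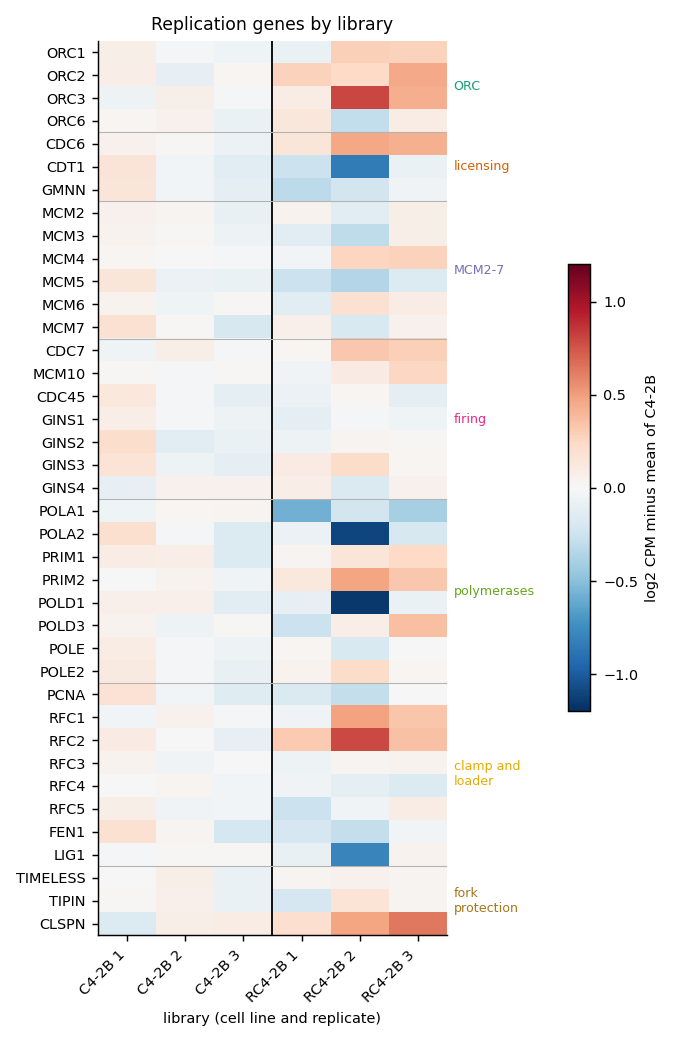
Heat map of log2 CPM minus the mean of the 3 C4-2B libraries for the 39 genes (rows, by role) in each of the 6 libraries (columns). The RC4-2B replicate 2 column holds the strongest colours, with POLD1 at 49.7 CPM and RFC2 at 200 CPM, while most rows are pale in RC4-2B replicates 1 and 3.

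Of the ORC genes, ORC2, a core subunit of the complex (chr2:200908973-200963680, minus strand), had 38.5, 33.9 and 36.9 CPM in C4-2B and 44, 42.9 and 49.8 CPM in RC4-2B. The groups did not overlap. Its log2 fold change was 0.32 (standard error 0.12, edgeR adjusted p = 0.185), 0.36 without RC4-2B replicate 2 (adjusted p = 0.0275) and 0.16 with the GC correction (adjusted p = 0.488). ORC3, another core subunit, had 10.6, 11.6 and 10.9 CPM in C4-2B and 11.7, 19.2 and 14.9 CPM in RC4-2B. The lowest RC4-2B library was close to the highest C4-2B library, and the highest was replicate 2. Its log2 fold change of 0.48 (standard error 0.20, edgeR adjusted p = 0.216) was 0.28 without that library and 0.27 with the GC correction. ORC1, the largest subunit, and ORC6 had log2 fold changes of 0.17 and -0.01, with overlapping groups.

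CDC6, the ATPase that joins ORC in loading the helicase (chr17:40287633-40304657, plus strand), had 158, 154 and 145 CPM in C4-2B and 168, 210 and 204 CPM in RC4-2B. All RC4-2B libraries were above all C4-2B libraries, replicate 1 by the least. The log2 fold change was 0.35 (standard error 0.12, edgeR adjusted p = 0.158), and 0.29 without RC4-2B replicate 2, where the adjusted p of 0.0498 lay just under the threshold. With the GC correction it was 0.23 with all libraries (adjusted p = 0.163) and without that library (adjusted p = 0.0834), so the call was lost. CDC6 lies on chromosome 17, whose 704 well-expressed genes had a median log2 fold change of 0.168, and of 0.264 with the GC correction, and the part of the chromosome in the CDC6 value was not tested. CDT1, its partner in loading, had 132, 116 and 109 CPM in C4-2B and 99.1, 66.1 and 112 CPM in RC4-2B. Its lowest value was in RC4-2B replicate 2, and the log2 fold change of -0.37 (standard error 0.19, edgeR adjusted p = 0.292) was -0.17 without that library and 0.07 with the GC correction. CDT1 has a transcript of 64.3% GC, the highest of the 39. GMNN, the CDT1 inhibitor, had 61.3, 54.3 and 51.2 CPM in C4-2B and 44.5, 47.5 and 53.9 CPM in RC4-2B, with overlapping groups. Its log2 fold change was -0.19 (edgeR adjusted p = 0.379), and -0.32 with the GC correction (adjusted p = 0.135).

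The 6 subunits of the MCM2-7 helicase had log2 fold changes between -0.26 and 0.17. Their summed FPKM (counts scaled by gene length and library total, as deposited) was 394 ± 27.1 in C4-2B and 394 ± 20.5 in RC4-2B (SD, n = 3). MCM5 (chr22:35400063-35425430, plus strand) had 263, 226 and 225 CPM in C4-2B and 199, 186 and 212 CPM in RC4-2B. All RC4-2B libraries were lower, with a log2 fold change of -0.26 (standard error 0.11, edgeR adjusted p = 0.222). The MCM5 value was -0.215 without RC4-2B replicate 2 (edgeR adjusted p = 0.123). With the GC correction it was -0.08 with all libraries and -0.166 without that library. MCM5 lies on chromosome 22, whose 287 well-expressed genes had a median log2 fold change of -0.164. That median was -0.0827 without RC4-2B replicate 2 and -0.0106 with the GC correction. The part of the chromosome in the MCM5 value was not tested. MCM4 had 392, 388 and 380 CPM in C4-2B and 379, 462 and 467 CPM in RC4-2B, so replicate 1 of RC4-2B lay at the C4-2B level and the others above it. MCM7 had 846, 753 and 652 CPM in C4-2B and 777, 658 and 772 CPM in RC4-2B, with a log2 fold change of -0.03 and a 95% interval of -0.32 to 0.26. MCM2, MCM3 and MCM6 had log2 fold changes of -0.01, -0.11 and 0.05, with overlapping groups.

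Of the firing and CMG assembly genes, all 7 had overlapping groups. CDC7, the kinase that phosphorylates the MCM ring, had 59.0, 64.1 and 60.2 CPM in C4-2B and 62.0, 76.2 and 74.5 CPM in RC4-2B. Its log2 fold change of 0.21 (standard error 0.12, edgeR adjusted p = 0.319) was 0.02 with the GC correction, and its transcript has 39.1% GC. MCM10, which takes part in helicase activation, and CDC45, the CMG subunit, had log2 fold changes of 0.11 and -0.06. The 4 GINS genes lay between -0.06 (GINS1) and 0.11 (GINS3). With the GC correction GINS1 was at -0.235 (edgeR adjusted p = 0.184).

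Subunits of polymerase alpha-primase lay on both sides of 0. POLA1, its catalytic polymerase subunit (chrX:24693919-24996986, plus strand), had 60.4, 63.5 and 63.9 CPM in C4-2B and 42, 53.8 and 47.6 CPM in RC4-2B. Every RC4-2B library was below every C4-2B library, and the C4-2B libraries lay close together. POLA1 differed by -0.39 on the log2 scale (95% interval -0.67 to -0.10, standard error 0.12, edgeR adjusted p = 0.144), -0.48 without RC4-2B replicate 2 (adjusted p = 0.00391) and -0.55 with the GC correction (adjusted p = 0.0044). PRIM2, the large primase subunit, had 48.4, 49.9 and 46.9 CPM in C4-2B and 52.7, 67.0 and 60.4 CPM in RC4-2B. These groups did not overlap in the opposite direction, and the log2 fold change was 0.31 (standard error 0.12, edgeR adjusted p = 0.206), or 0.17 with the GC correction (adjusted p = 0.254). PRIM1, the catalytic primase subunit, differed by 0.14 with overlapping groups. POLA2 had 13.7, 11.8 and 10.7 CPM in C4-2B and 11.4, 5.59 and 10.5 CPM in RC4-2B, so that replicate 2 alone lay far below, and its log2 fold change of -0.40 was -0.14 without it.

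POLD1, the catalytic subunit of polymerase delta, had 116, 116 and 102 CPM in C4-2B and 104, 49.7 and 105 CPM in RC4-2B. This was the largest spread within a group, a CV of 36.7%, and it came from RC4-2B replicate 2. The log2 fold change of -0.37 (standard error 0.26, edgeR adjusted p = 0.40) was -0.09 without that library. The accessory subunit POLD3 and the polymerase epsilon genes POLE and POLE2 had log2 fold changes of 0.08, -0.05 and 0.10, all with overlapping groups.

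RFC2, a small subunit of the clamp loader that places PCNA on DNA (chr7:74231499-74254458, minus strand), had the largest log2 fold change of the 39 genes with all 6 libraries, but not without RC4-2B replicate 2. It had 124, 116 and 108 CPM in C4-2B and 144, 200 and 148 CPM in RC4-2B. All RC4-2B libraries were higher, and replicate 2 was the highest. The RFC2 transcript has 52.6% GC. The log2 fold change was 0.50 (95% interval 0.16 to 0.83, standard error 0.15, edgeR adjusted p = 0.121), 0.33 without RC4-2B replicate 2 (adjusted p = 0.018) and 0.57 with the GC correction (adjusted p = 0.0493). RFC1, the large subunit, had 124, 131 and 125 CPM in C4-2B and 123, 177 and 160 CPM in RC4-2B, with overlapping groups and a log2 fold change of 0.28 (edgeR adjusted p = 0.281) that was 0.17 without RC4-2B replicate 2 and 0.12 with the GC correction. RFC4 had 93.2, 95.2 and 91.4 CPM in C4-2B and 90.3, 85.7 and 83.0 CPM in RC4-2B. The groups of RFC4 did not overlap, but they differed by a log2 fold change of only -0.11. With the GC correction the RFC4 value was -0.21 (edgeR adjusted p = 0.182). RFC3 and RFC5 differed by 0.01 and -0.06. PCNA had 304, 265 and 245 CPM in C4-2B and 239, 221 and 269 CPM in RC4-2B, which is a difference of -0.16 on the log2 scale with overlapping groups. The PCNA difference was -0.26 with the GC correction (edgeR adjusted p = 0.231). FEN1, the flap endonuclease, and LIG1, the ligase, had log2 fold changes of -0.18 and -0.24. For LIG1, RC4-2B replicate 2 had 19.7 CPM and all other libraries 32.0 to 35.0 CPM.

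Of the fork protection genes, CLSPN, which encodes the checkpoint adaptor claspin (chr1:35720218-35769967, minus strand), had 43.7, 51.6 and 52.3 CPM in C4-2B and 56.4, 68.0 and 76.0 CPM in RC4-2B. All RC4-2B libraries were higher, and here replicate 3, not replicate 2, was the highest. CLSPN differed by 0.44 on the log2 scale (95% interval 0.11 to 0.77, standard error 0.14, edgeR adjusted p = 0.151), 0.43 without RC4-2B replicate 2 (adjusted p = 0.030) and 0.32 with the GC correction (adjusted p = 0.135). TIMELESS and TIPIN, which form a complex that travels with the fork, differed by 0.04 and 0.00, and TIMELESS was between 195 and 216 CPM in all 6 libraries.

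On the scale of CPM per kilobase of the MANE Select transcript, MCM7 was the highest of the 39 genes, at 304 ± 39.4 in C4-2B and 298 ± 27.3 in RC4-2B (SD, n = 3), and PCNA was next at 213 ± 23.3 and 190 ± 18.8. On the deposited FPKM scale, which uses another gene length, these genes were at 165 for PCNA and 153 for MCM7 in C4-2B and at 150 and 153 in RC4-2B. The lowest was POLA2, at 3.40 ± 0.422 and 2.58 ± 0.878 CPM per kilobase, and next lowest were ORC3 and CLSPN. On the FPKM scale, POLA2 and ORC3 were also the lowest in C4-2B, at 1.89 and 2.67, but CLSPN, whose length in the table is 0.636 times that of its MANE Select transcript, was at 8.15, above GINS3 at 4.18. Among the helicase subunits, MCM4, MCM3 and MCM2 were within their spread of each other in C4-2B, at 95.2 ± 1.40, 93.2 ± 3.49 and 93.2 ± 5.01. Of the 39 genes, 10 overlap another expressed gene (FEN1, GINS2, MCM2, MCM7, POLA1, POLD3, PRIM1, RFC3, RFC4 and RFC5), and whether the counting used strand is not given in the sources used here.

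**Figure D4:**
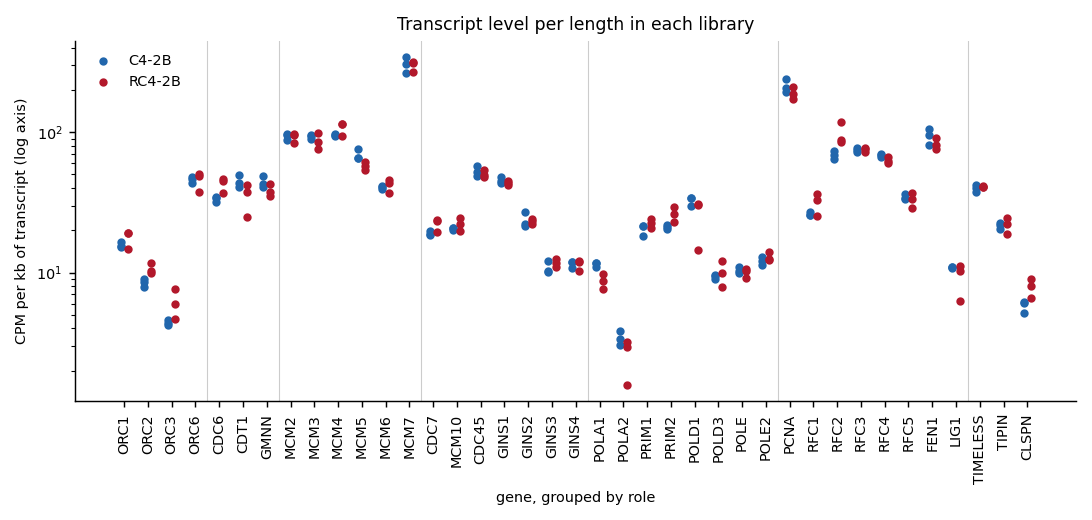
Level of each of the 39 genes in CPM per kilobase of the MANE Select transcript, on a log axis, with 1 point per library for C4-2B (blue) and RC4-2B (red). Levels run from POLA2 (3.40 in C4-2B) to MCM7 (304 in C4-2B), and for most genes the red and blue points overlap.

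As shares of the summed CPM per kilobase of their complex, 8 of 23 subunits (34.8%) in 5 complexes did not overlap between the lines, 3 higher and 5 lower in RC4-2B. For levels of single genes, 17.0% of all tested genes were higher and 17.1% lower without overlap. Levels and shares are unlike measures, and no background was computed for shares. Shares within a complex are tied to each other, and no test was run on them. RFC2 made up 25.3 ± 0.999% of the RFC1 to RFC5 sum in C4-2B and 32.3 ± 3.46% in RC4-2B, while RFC3 and RFC4 made up smaller shares. POLA1 made up 20.3 ± 1.42% of alpha-primase in C4-2B and 14.6 ± 0.90% in RC4-2B, and PRIM2 37.4 ± 0.866% and 43.5 ± 2.38%. MCM7 held 43.6% of the helicase sum in both lines, with an SD of 2.26 in C4-2B and 2.24 in RC4-2B.

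**Figure D5:**
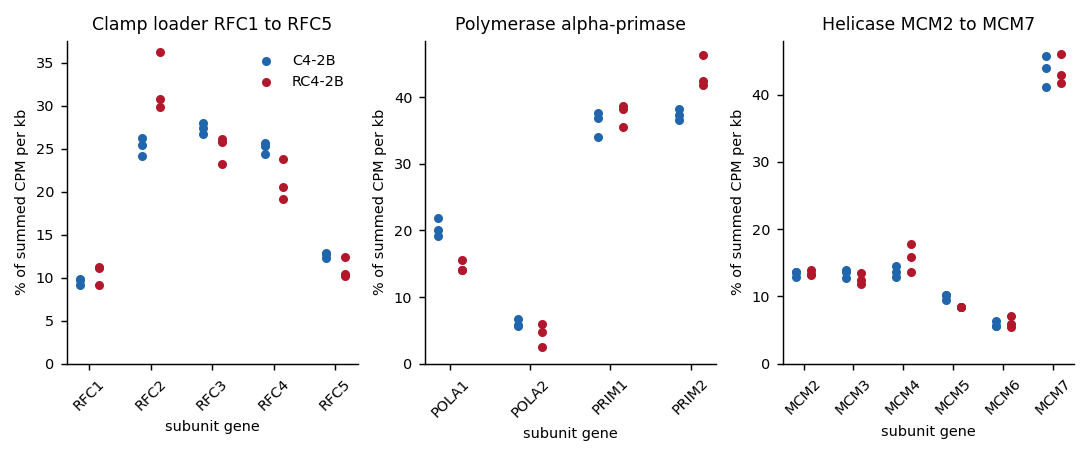
Percent of the summed CPM per kilobase that each subunit gene makes up within the clamp loader, polymerase alpha-primase and the MCM2-7 helicase, with 1 point per library for C4-2B (blue) and RC4-2B (red). The points of RFC2 and PRIM2 lie higher and those of POLA1 and MCM5 lower in every RC4-2B library, and MCM7 overlaps at 43.6% on average in both lines.

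Related genes outside the 39 gave 1 call in the edgeR test, over 4 lists. Of 35 other replication fork genes, 0 passed. At an unadjusted p-value under 0.05, 8 were higher (22.9%, against 12.0% of all tested genes) and 1 lower (2.86%, against 9.42%). DBF4, the activator of CDC7, had 64.8, 65.9 and 66.3 CPM in C4-2B and 94.1, 137 and 93.8 CPM in RC4-2B. All RC4-2B libraries of DBF4 were higher, by a log2 fold change of 0.72 (standard error 0.16, edgeR adjusted p = 0.0632, 0.000955 without RC4-2B replicate 2). DBF4 lies on chromosome 7, whose 567 well-expressed genes had a median log2 fold change of 0.0557. A median over the whole chromosome does not describe the genes near DBF4, which were not looked at separately. ABCB1, which the paper reports as its most differentially expressed gene, lies on the same chromosome, and its distance from DBF4 was not examined. Whether the DBF4 and ABCB1 differences are linked was not tested. With DESeq2, without RC4-2B replicate 2 and with the GC correction, 2 of the 35 (5.71%, against 3.28%, 6.50% and 4.36% of all tested genes) were higher, DBF4 and RPA1, a subunit of the single-strand binding protein, with RPA1 named after its values were seen. Of 22 genes of S phase entry control and 12 of deoxynucleotide supply, 0 passed. At an unadjusted p-value under 0.05, 1 of the 22 was higher and 1 lower (4.55% each), and 0 of the 12 were higher and 1 lower (8.33%). Of 12 G2/M and proliferation markers, 1 passed (8.33%, against 1.08% of all tested genes higher), and before adjustment 4 had a p-value under 0.05 and were higher (33.3%, against 12.0%) and 0 lower. The gene that passed, TOP2A, which encodes topoisomerase II alpha, had 237, 284 and 248 CPM in C4-2B and 431, 524 and 419 CPM in RC4-2B. TOP2A differed by 0.84 on the log2 scale (standard error 0.13, edgeR adjusted p = 0.018). The adjusted p was 6.61e-05 without RC4-2B replicate 2, 0.00386 with the GC correction and 2.05e-05 with DESeq2. The call was lost, with adjusted p-values up to 0.138, without any 1 of the C4-2B libraries or without RC4-2B replicate 3, while the difference stayed between 0.73 and 0.92 with any 1 library left out. TOP2A and RPA1 lie on chromosome 17, as CDC6 does.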

How the data were processed

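RNAseq libraries of C4-2B and RC4-2B (3 biological replicates each, as labelled) were analysed. Per the labels, reads were mapped to GRCh38 with STAR. The authors deposited whole-number counts per gene and FPKM values, which scale these by gene length and a library total. Counter, use of strand and annotation release are not given in the sources used here. The counts on genes were 87.86% to 90.85% of that total in 5 libraries and 96.29% in RC4-2B replicate 2.

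Counts were analysed with edgeR 4.0.16 (R 4.3.3), with TMM scaling, filterByExpr (minimum 10 counts), glmQLFit and glmQLFTest, cell line as the only term, and Benjamini-Hochberg adjustment over 15054 genes (threshold 0.05). The alternatives were DESeq2 1.42.0, limma 3.58.1 on log2(FPKM + 1) and log2(FPKM + 0.1), RLE and upper-quartile scaling, no filter, a mean of at least 10 counts, protein-coding genes alone, a replicate block, leaving out each library, and a lowess offset (span 0.2) on transcript GC from GENCODE release 44, alone, with the block or without RC4-2B replicate 2. Promoters came from RefSeq (GRCh38.p14). The named genes are all 39 genes, the genes of the other lists past the threshold, and DBF4. Genes and lists were chosen with earlier results of these data known. Libraries of a line differed by more than sampling noise (chi-square per gene 3.40 to 66.6). The p-values set each difference between the lines against the spread between these libraries. Some marker genes are not reported here.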

Additional observations from a re-analysis of the deposited data

How the results depend on the processing

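Over the 39 genes, the median difference stayed within the spread between libraries (0.066) under all 18 other settings. Of 41 named genes, each under the 18 settings, 713 results kept their direction of call and side of the threshold, 20 newly passed it, 5 lost it and none that passed was reversed; 19 of the 39 genes changed the sign of an uncalled difference in at least 1 setting, 3 of them under another scaling. Against 0 of 39 higher, 1 passed with no filter, with the GC correction and with the GC correction and replicate block, 2 with the GC correction without RC4-2B replicate 2, and 0 to 4 with 1 library left out. Against 0 lower, 1 passed with the GC correction, alone, with the block or without that library, and 0 to 1 with 1 library left out. Other replication fork genes gave 2 calls with DESeq2, with no filter and with the GC correction, alone or with the block, 3 with the GC correction without RC4-2B replicate 2, and 0 to 2 with 1 library left out. S phase entry control gave 1 with no filter, 1 with the GC correction without RC4-2B replicate 2 and 0 to 2 with 1 library left out. Deoxynucleotide supply gave 1 with the GC correction, alone or with the block, and 2 without RC4-2B replicate 2 as well. The G2/M markers gave 2 with no filter, 0 with limma on log2(FPKM + 0.1), 3 with the GC correction and block, 2 with the GC correction without RC4-2B replicate 2, and 0 to 1 with 1 library left out. The cause of these changes was not tested.

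The replicate numbers did not clearly pair the libraries. Correlations of deviations were 0.318, 0.178 and -0.0691 between same-numbered libraries of the lines, and -0.291 to 0.173 between differently numbered ones. With the replicate block, 0 of the 39 genes were higher and 0 lower. The GC correction also removes any mean GC trend between the lines. With 3 libraries a group, the standard errors of the 39 differences ran from 0.095 to 0.26 on the log2 scale.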
